A study of Homo sapiens with 20 samples.

Results

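The mRNAs of 38 genes that encode stress granule proteins were followed in exosomes and in cytoplasmic RNA granules. The genes were chosen by symbol from a list of known stress granule proteins, with earlier results of these data known, and all 38 were found among the 62266 named genes of the libraries. Stress granules are assemblies of stalled mRNAs and RNA-binding proteins that form in the cytoplasm when translation initiation is blocked. G3BP1 and G3BP2 join RNA into a network, and proteins such as CAPRIN1, UBAP2L, TIA1 and ataxin-2 take part in or tune its assembly. The measurements here concern the mRNAs that encode these proteins, not the proteins themselves.

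Total RNA was sequenced from HEK293 cells, an established human embryonic kidney line, and the comparison was of compartment (granule or exosome) and of condition, with a model of Huntington's disease (HD) set against control cells. The 4 groups of 5 libraries were granules from HD-induced cells (HD granules), granules from control cells (control granules), exosomes from HD-induced cells (HD exosomes) and exosomes from control cells (control exosomes). Exosomes are small vesicles that cells release, and the granules are described in the labels as cytoplasmic cores. The design calls the libraries of a group biological replicates. All groups share 1 cell line. The sources used here do not give how HD was induced, which allele or agent served, or whether control cells carried a matched construct.

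Estimated reads on named genes numbered 17729400 to 23898900 in HD granules, 11355400 to 24515000 in control granules and 5300770 to 9039450 in control exosomes. HD exosomes were uneven, with 7405990, 1941890, 1327500 and 3003720 reads in replicates 1, 2, 3 and 5 and 713 reads in replicate 4, of which 7 lay on the stress granule genes. In HD exosome 2, 86.6% of all reads fell on entries without a gene name. In control granule 2 it was 59.2%, against 24.9% to 36.1% in the other control granules. The lowest correlation between libraries of a group was 0.738 for HD granules and 0.910 for control granules, and 0.252 for HD exosomes and 0.943 for control exosomes. HD granule 3 stood apart for several of the genes, and its values are given for some of these. The summed level of 5 markers of the HEK293 line (VIM, INA, NEFM, NEFL and PAX2) was 311 to 439 CPM (counts scaled to the named reads of each library) in control granules and 785 to 871 CPM in control exosomes, with none of the 5 at 0, and 3 of 3 tested were lower in control granules. Summed blood markers were 9.56 to 36.1 CPM in control granules, where PF4, PPBP and RGS18 were at 0, and 74.6 to 256 CPM in control exosomes, where PPBP was, and 6 of 7 tested were lower in control granules. Summed skin markers were 214 to 476 CPM in control granules and 369 to 579 CPM in control exosomes. LORICRIN was at 0 in both, and 3 of 3 tested were lower in control granules. The tested markers' median log2 fold change over control exosomes was -1.76 (HEK293 line), -2.98 (blood) and -6.35 (skin). Over all genes, 32.5% were lower. The blood markers were HBA1, HBA2, HBB, HBG1, ALAS2, PTPRC, RGS18, PF4 and PPBP. The skin markers were KRT1, KRT2, KRT5, KRT10, KRT14, LORICRIN and DSP. In HD granules and HD exosomes, summed HEK293 markers were 325 to 883 and 0 to 988 CPM, blood markers 6.46 to 79.8 and 0 to 1892 CPM, and skin markers 153 to 482 and 495 to 1442 CPM. The part of these markers in the results was not tested.

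Together the 38 genes took 1.08% ± 0.199 of named reads in HD granules and 1.25% ± 0.228 in HD exosomes, and 1.07% ± 0.143 in control granules and 1.36% ± 0.0657 in control exosomes (SD, n = 5 each). Per transcript length, as TPM (reads scaled to transcript length and library total), HNRNPA1 was the most abundant of them in control granules at 131 ± 41.99 TPM and YBX1 in control exosomes at 481 ± 52.2 TPM. IGF2BP2 and USP10 were the least abundant in control exosomes, at 4.77 ± 0.892 and 7.93 ± 1.21 TPM, and in control granules USP10, at 4.10 ± 1.09 TPM, lay within the spread of IGF2BP2 at 4.18 ± 1.51 TPM and ELAVL1 at 4.20 ± 1.06 TPM. Below, levels are CPM after trimmed-mean (TMM) scaling, and they can be compared only within a comparison.

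In control cells, 27 of the 38 mRNAs differed between granules and exosomes: 6 were higher in granules and 21 lower. The test was the quasi-likelihood test of edgeR, with p adjusted by the Benjamini-Hochberg method over all 14777 genes tested and called under 0.05. Of all genes tested, 62.4% were called, 30.0% as higher and 32.5% as lower in granules. With an offset for transcript length the split of the 38 was 10 higher and 20 lower, and 56.4% of all genes were called. The median log2 fold change of the 38 was -0.43, against -0.02 over all genes. All 5 granule libraries lay on 1 side of all 5 exosome libraries for 23 of the 38, against 49.1% of all genes. All 38 passed the filter on low counts. Sequencing gives shares of each library, so more of an RNA and less of the others cannot be told apart, nor can fewer particles and less RNA per particle.

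On build GRCh38, by the RefSeq gene table, the 3 genes with the lowest log2 fold changes in control cells and the 1 with the highest lay on different chromosomes: YBX1 (ENSG00000065978.19) at chr1:42682418-42703805, ELAVL1 (ENSG00000066044.15) at chr19:7958573-8005641, TAF15 (ENSG00000270647.7) at chr17:35809484-35847242 and PUM2 (ENSG00000055917.17) at chr2:20248691-20352253.

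**Figure D1:**
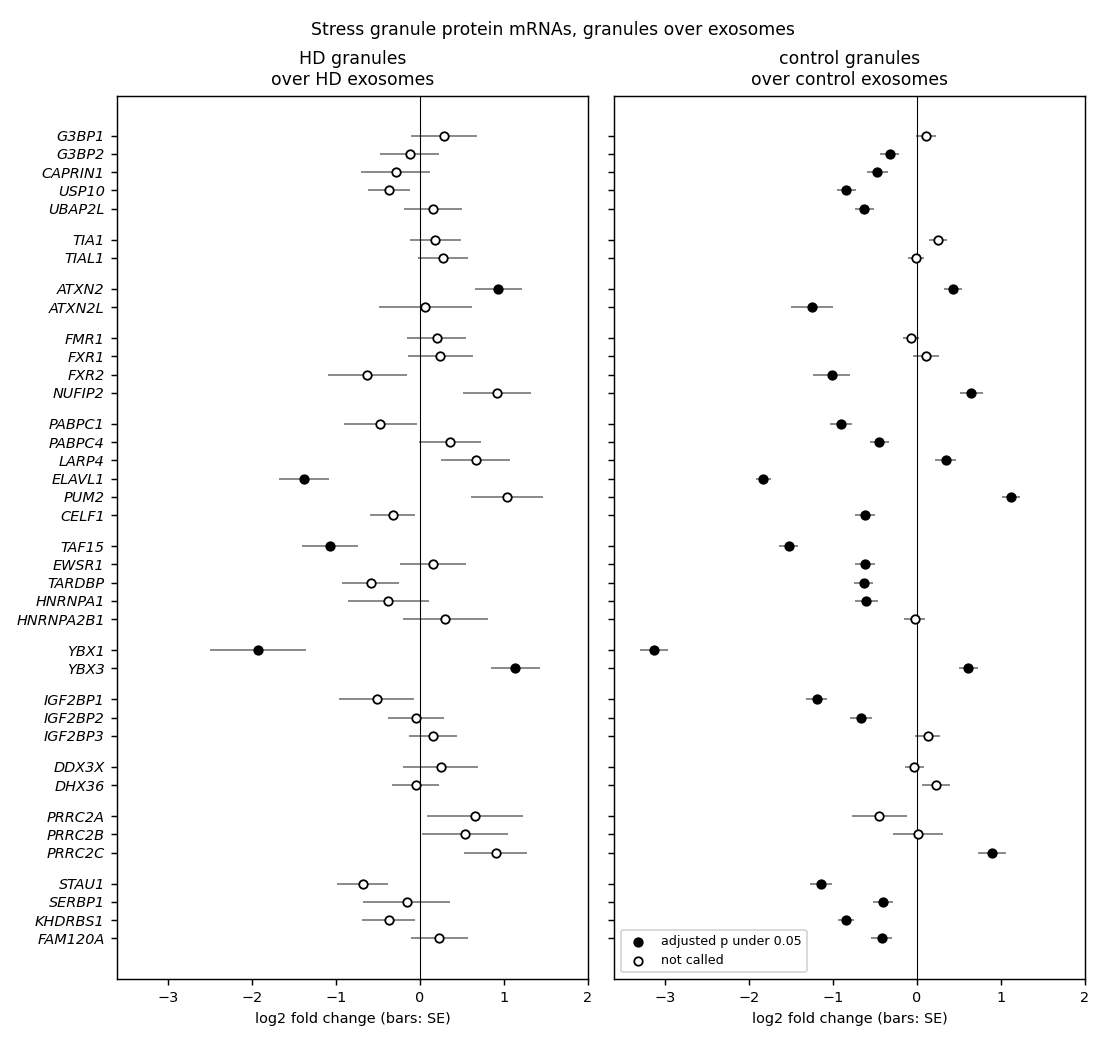
Log2 fold change of each of the 38 mRNAs (x axis, with SE) between granules and exosomes in HD-induced cells (left) and control cells (right), in groups by the role of the protein. Filled points were called at an adjusted p under 0.05: 5 in HD-induced cells and 27 in control cells, with YBX1 lowest in both.

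Of the 5 genes of the G3BP network, 4 were lower in control granules and none was higher. Over all genes, 32.5% were lower and 30.0% higher. USP10, a deubiquitinase that binds G3BP and restrains condensation, stood at 40, 29.4, 36.9, 35.6 and 39.8 CPM in control granules 1 to 5, against 62.3, 68.3, 62.7, 67.6 and 64.2 CPM in control exosomes. The groups did not overlap, and the log2 fold change was -0.84 ± 0.11 (SE; edgeR adjusted p = 4.68e-05). UBAP2L, which promotes assembly, averaged 127 ± 20.2 CPM in control granules and 196 ± 13.1 CPM in control exosomes (SD, n = 5 each; log2 fold change -0.62 ± 0.12 SE), also without overlap. CAPRIN1, a partner of G3BP, had a log2 fold change of -0.47 ± 0.13, and G3BP2 of -0.32 ± 0.11. G3BP1, the central scaffold, was not called, at 405 ± 33.4 CPM in control granules and 375 ± 53.3 CPM in control exosomes (95% interval of the log2 fold change -0.15 to 0.37). It was called as higher in control granules with protein-coding transcripts alone, at 0.39, and as lower with an offset for transcript length, at -0.51.

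The UBAP2L, CAPRIN1 and G3BP2 calls did not hold throughout. UBAP2L was not called after GC correction, and was called as higher, at 0.36, with the offset for transcript length. CAPRIN1 was lost without control granule 2, 3 or 4 (adjusted p up to 0.106). G3BP2 was lost without any 1 control granule or without control exosome 2 or 5 (adjusted p up to 0.292).

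The TIA proteins bind uridine-rich RNA and help stalled initiation complexes to condense. TIA1 averaged 67.7 ± 7.85 CPM in control granules and 56.8 ± 4.22 CPM in control exosomes (SD, n = 5 each), and TIAL1 128 ± 11.3 and 128 ± 8.57 CPM. Neither was called, with log2 fold changes of 0.25 (95% interval 0.01 to 0.50; edgeR adjusted p = 0.0656) and -0.01 (-0.21 to 0.20). TIA1 was called as higher without control granule 2 or 3, with DESeq2's size factors and with the offset for transcript length, and as lower, with TIAL1, after correction for GC content.

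The ataxin-2 paralogs went in opposite directions. ATXN2 encodes ataxin-2, a protein with a polyglutamine tract, and its mRNA stood at 103, 88.3, 89.4, 79.4 and 87.9 CPM in control granules 1 to 5, against 58.7, 72.9, 64.5, 67.6 and 68.8 CPM in control exosomes. Every granule library lay above every exosome library (log2 fold change 0.43 ± 0.10 SE; edgeR adjusted p = 0.00356). ATXN2L, the ataxin-2-like protein, stood at 119, 62.3, 63.8, 47.7 and 51.9 CPM in control granules, against 225, 146.5, 138, 181 and 127 CPM in control exosomes. The groups again did not overlap, although control granule 1 lay close to control exosome 5 (log2 fold change -1.25 ± 0.25 SE; edgeR adjusted p = 0.000995). ATXN2 was not called when protein-coding transcripts alone were counted, and ATXN2L was not called after GC correction or with an offset for transcript length, under which its log2 fold change was 0.25.

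Of FMR1 and its relatives, NUFIP2 was higher and FXR2 lower in control granules. NUFIP2, a partner of the fragile X protein FMRP, stood at 496, 450.6, 482, 508 and 678 CPM in control granules 1 to 5, against 299.8, 353, 315, 305 and 394 CPM in control exosomes. The granule libraries were all higher, and replicate 5 was the highest (log2 fold change 0.65 ± 0.13 SE; edgeR adjusted p = 0.00119). FXR2, an FMRP paralog, averaged 56.7 ± 19.8 CPM in control granules and 115 ± 10.02 CPM in control exosomes (log2 fold change -1.02 ± 0.22). FMR1 and FXR1 were not called, with 95% intervals of -0.28 to 0.14 and -0.23 to 0.44. FXR1 was called as lower after GC correction, at -0.50, and as higher with the offset for transcript length, while FMR1 was called as lower in both.

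All 6 mRNAs of proteins that bind poly(A) tails or sites near the 3' end of mRNAs were called, 2 as higher and 4 as lower. Of all genes 62.4% were called, 30.0% as higher and 32.5% as lower. PUM2, a Pumilio repressor, stood at 608, 556, 608, 532 and 696 CPM in control granules 1 to 5, against 266, 287.5, 256, 268 and 302 CPM in control exosomes. This was the largest increase of the 38, with a log2 fold change of 1.12 ± 0.11 (SE; edgeR adjusted p = 3.25e-06). ELAVL1, which encodes the stabilising protein HuR, stood at 64.8, 56.8, 65.0, 59.4 and 61.4 CPM in control granules, against 226, 196, 209.9, 237 and 220.4 CPM in control exosomes. Its lowest exosome library was above its highest granule library, and the fold change corresponds to a level 3.54 times as high in control exosomes (log2 fold change -1.83 ± 0.09 SE; edgeR adjusted p = 5.65e-08).

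The cytoplasmic poly(A)-binding protein mRNA PABPC1 stood at 561, 395, 474, 413 and 521.5 CPM in control granules 1 to 5, against 848, 1059, 794, 809.7 and 911 CPM in control exosomes. The groups did not overlap (log2 fold change -0.90 ± 0.13 SE). Its paralog PABPC4 had a log2 fold change of -0.45 ± 0.11, and CELF1, a CUG-binding regulator of splicing and decay, of -0.61 ± 0.12. LARP4, which binds poly(A) and PABPC1, was 0.34 ± 0.13 higher on that scale in control granules. The LARP4 call was lost without control exosome 1, 2, 3 or 4 (edgeR adjusted p up to 0.0804) and the PABPC4 call without control granule 2 or 4 (adjusted p up to 0.0547).

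The FET proteins TAF15 and EWSR1, TDP-43 and the hnRNP A proteins all have low-complexity domains. Of their mRNAs, 4 were lower in control granules and none was higher, against 32.5% and 30.0% of all genes. TAF15 stood at 92.7, 74.9, 92.8, 93.1 and 78.8 CPM in control granules 1 to 5, against 222.5, 254.5, 228, 247 and 291 CPM in control exosomes. Every granule library was below every exosome library (log2 fold change -1.52 ± 0.11 SE; edgeR adjusted p = 5.13e-07). TARDBP, the gene of TDP-43, had a log2 fold change of -0.63 ± 0.11, EWSR1 of -0.62 ± 0.12 and HNRNPA1 of -0.60 ± 0.13, each without overlap of the groups. HNRNPA2B1 was not called, at 659 ± 83.7 CPM in control granules and 671 ± 72.5 CPM in control exosomes, but was called as lower after GC correction and with the offset for transcript length. Up to 3.04% of the reads of HNRNPA1 and its 74 processed copies lay on the copies.

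YBX1 and YBX3 are Y-box proteins, which package mRNA, and their mRNAs gave the lowest log2 fold change of the 38 and 1 of the 6 increases. YBX1 stood at 213, 230.3, 171, 226 and 139 CPM in control granules 1 to 5, against 1518, 1827, 1768, 1846 and 1603 CPM in control exosomes. No library of one group came near the other, and the level in control exosomes was 8.74 times that in control granules (log2 fold change -3.13 ± 0.17 SE; edgeR adjusted p = 6.82e-08). YBX3 stood at 179, 162, 187, 206 and 189.6 CPM in control granules, against 117, 103.5, 108.5, 132 and 143 CPM in control exosomes. It was higher in every granule library (log2 fold change 0.61 ± 0.11 SE; edgeR adjusted p = 0.000564), but was not called with protein-coding transcripts alone.

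Among the IGF2 mRNA-binding proteins, IGF2BP1 stood at 294, 191, 224, 192.5 and 216 CPM in control granules 1 to 5, against 531.5, 526, 482, 508 and 503 CPM in control exosomes. The groups were far apart (log2 fold change -1.19 ± 0.13 SE; edgeR adjusted p = 8.18e-06). IGF2BP2 was also lower (-0.67 ± 0.13), and IGF2BP3 was not called (95% interval -0.19 to 0.44). The helicases DDX3X, which acts in translation initiation, and DHX36, which unwinds G-quadruplexes, were not called either, with 95% intervals of -0.28 to 0.23 and -0.14 to 0.59. DHX36 was called as higher without control granule 2 and as lower, at -0.60, after GC correction, where DDX3X was also called as lower.

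PRRC2C, 1 of the 3 large PRRC2 proteins with disordered regions, stood at 857, 559.6, 752, 582 and 764 CPM in control granules 1 to 5, against 292, 461.5, 384, 309 and 442 CPM in control exosomes. It was higher in all granule libraries (log2 fold change 0.90 ± 0.17 SE; edgeR adjusted p = 0.000644). PRRC2A and PRRC2B varied widely, from 172 to 588 and from 208 to 712 CPM in control granules with replicate 1 highest in both, and were not called. Without control granule 1, PRRC2A was called as lower, at a log2 fold change of -0.83, and with the offset for transcript length as higher, at 0.64. PRRC2B was also called as higher with that offset.

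All 4 mRNAs of the remaining RNA-binding proteins were lower in control granules, as were 32.5% of all genes. STAU1, a double-stranded RNA-binding protein of mRNA transport, stood at 53.8, 39.6, 43.9, 40.2 and 53.2 CPM in control granules 1 to 5, against 95.6, 113.6, 95.9, 113.8 and 88.9 CPM in control exosomes. The groups did not overlap (log2 fold change -1.14 ± 0.13 SE; edgeR adjusted p = 1.35e-05). KHDRBS1, the signalling and splicing protein SAM68, had a log2 fold change of -0.84 ± 0.10, FAM120A of -0.42 ± 0.13 and SERBP1, which binds ribosomes, of -0.40 ± 0.12. The FAM120A call was lost without control granule 2, 3, 4 or 5 (edgeR adjusted p up to 0.124) and the SERBP1 call without control granule 2, 3 or 4 (adjusted p up to 0.144).

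Over 22 alternative settings, 13 of the 27 calls were made every time: NUFIP2, PRRC2C and PUM2 as higher, and CELF1, ELAVL1, IGF2BP1, KHDRBS1, PABPC1, STAU1, TAF15, TARDBP, USP10 and YBX1 as lower. Over all genes the number called every time was not counted, and single settings called 28.1% to 71.2% of them. GC correction ended the calls of UBAP2L, ATXN2L, PABPC4, EWSR1 and FAM120A, and LARP4 was then called as lower. The offset for transcript length ended those of ATXN2L, YBX3, IGF2BP2 and FAM120A. Among the 37 genes with a known GC content, Spearman's rho between the log2 fold change and GC was -0.57, a description over genes that share the same libraries, against -0.51 over 13093 protein-coding genes. Of 50 other stress granule genes, 6 were higher and 30 lower in control granules (median log2 fold change -0.45). Of 28 regulators of assembly and clearance, 3 were higher and 18 lower (median -0.63). Over all genes, 30.0% were higher and 32.5% lower. Of the 50, TNPO1, a nuclear import receptor, had a log2 fold change of 1.01 ± 0.13, and HNRNPAB of -1.91 ± 0.09.

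**Figure D2:**
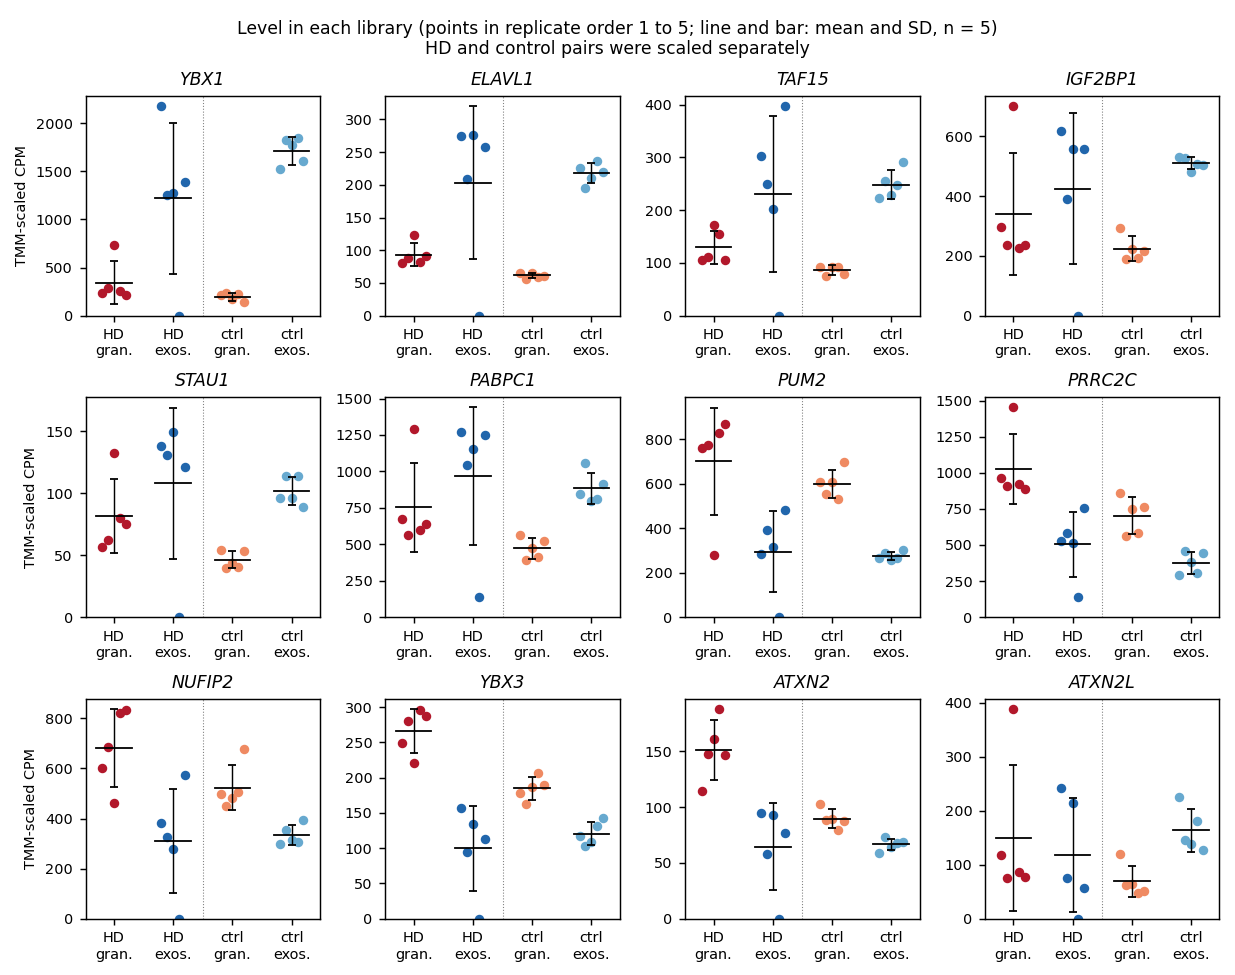
TMM-scaled CPM (y axis, from 0) of 12 mRNAs in each library, in HD granules, HD exosomes, control granules and control exosomes from left to right, with mean and SD. YBX1 lay between 139 and 230.3 CPM in control granules and between 1518 and 1846 CPM in control exosomes, and HD exosome 4 was the lowest exosome library in all 12 plots.

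The division of reads among transcripts of a gene was a measure that had no part in choosing the genes. Salmon, the tool the submitters' notes name, splits reads of shared exons among transcripts by estimation, and the error of that split is not in the files. A retained-intron transcript keeps an intron that other transcripts of the gene splice out. Of the 27 genes with such transcripts and at least 50 reads in each library, 23 had a higher retained-intron share in control granules than in control exosomes and none a lower one, by exact 2-sided permutation tests adjusted over 6027 genes. Over all of those genes 56.7% were called, 55.7% as higher and 0.996% as lower. The groups did not overlap for 20 of the 27, against 46.4% of all genes. The median share of the 27 was 17.3% in control granules and 3.18% in control exosomes, against 7.48% and 2.09% over all genes. The smallest p that 5 against 5 libraries can give is 0.00794.

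EWSR1 had 73.6%, 91.6%, 91.6%, 97.8% and 94.4% of its reads on retained-intron transcripts in control granules 1 to 5, against 19.0%, 17.3%, 19.0%, 20.5% and 25.9% in control exosomes. PABPC4 had 49.7%, 46.2%, 59.5%, 65.1% and 64.4% in control granules, against 9.52%, 7.48%, 7.59%, 8.11% and 7.26% in control exosomes. The groups were far apart for both genes (exact permutation p = 0.00794, adjusted 0.0171). TAF15 averaged 69.7% ± 5.89 in control granules and 25.9% ± 2.88 in control exosomes, DDX3X 60.4% ± 8.85 and 17.9% ± 7.54, and YBX3 59.9% ± 6.58 and 20.01% ± 1.40 (SD, n = 5 each). These 3 genes also had no overlap between groups. FMR1 averaged 42.7% ± 9.26 in control granules and 6.71% ± 3.47 in control exosomes, ATXN2L 37.9% ± 5.43 and 1.74% ± 1.13, and G3BP2 36.1% ± 6.49 and 3.18% ± 0.833. HNRNPA2B1 differed from these in its summed share. It had 78.2% ± 1.80 in control granules and 77.7% ± 2.31 in control exosomes (exact permutation adjusted p = 0.703). Its single retained-intron transcripts were not alike. HNRNPA2B1-207 averaged 6.79% in control granules (at most 13.7%) and 60.5% in control exosomes (at least 50.6%). HNRNPA2B1-204 and HNRNPA2B1-205 had higher means in control granules. Shares of single transcripts were not tested.

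Over all transcripts not classed as protein-coding, which add nonsense-mediated decay and other classes, 19 of 36 genes were higher in control granules and 2 lower, against 35.6% and 3.23% (38.8% in all) of 8274 genes. The groups did not overlap for 20 of the 36, against 32.6% of all genes. The 2 lower ones were PUM2, at 0.866% ± 0.133 in control granules and 1.67% ± 0.353 in control exosomes, and HNRNPA2B1, at 85.6% ± 1.52 and 94.4% ± 2.28. Of 4 nuclear RNAs, 2 could be tested, and 1 of these was higher in control granules. MALAT1 stood at 891 to 1658 CPM in control granules and 612 to 814 CPM in control exosomes, and NEAT1 had a median of 4.77 CPM in control granules and 40.4 CPM in control exosomes. The part of nuclear RNA in the shares was not tested.

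The kept introns of 6 genes are examples of the sequences behind the shares, which sum over all retained-intron transcripts of a gene. For each, the retained-intron transcript with the largest share in control granules that matched GENCODE release 29 was taken, and its shortest kept intron within the coding region that starts with GT and ends with AG. Genes were shown where that transcript had at least 15% of the reads in control granules, a choice made after the values were seen. PABPC4-209 kept 8 such introns, EWSR1-216 and ATXN2L-211 kept 3 each and YBX3-208 kept 2. EWSR1-217 and PABPC4-231 took more in control granules, at 34.5% and 21.1%, but did not meet these terms. Coordinates are on build GRCh38, capitals mark the intron and lower case the flanking exon bases. For introns over 200 bases only both ends are shown.
HNRNPA2B1-204, chr7:26197733-26197830, minus strand: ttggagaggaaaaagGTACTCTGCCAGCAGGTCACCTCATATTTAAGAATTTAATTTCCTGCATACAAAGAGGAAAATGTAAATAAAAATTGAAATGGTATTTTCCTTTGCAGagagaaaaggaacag
ATXN2L-211, chr16:28835400-28835545, plus strand: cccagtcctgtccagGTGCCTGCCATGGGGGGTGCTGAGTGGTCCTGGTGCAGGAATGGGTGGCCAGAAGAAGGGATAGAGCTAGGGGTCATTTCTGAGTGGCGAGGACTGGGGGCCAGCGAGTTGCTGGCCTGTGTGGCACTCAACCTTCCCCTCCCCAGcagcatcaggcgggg
PABPC4-209, chr1:39563742-39563835, minus strand: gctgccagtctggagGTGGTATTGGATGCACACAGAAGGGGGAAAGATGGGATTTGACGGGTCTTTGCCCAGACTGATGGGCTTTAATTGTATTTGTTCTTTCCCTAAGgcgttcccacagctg
EWSR1-216, chr22:29289063-29291564, plus strand, 5' end: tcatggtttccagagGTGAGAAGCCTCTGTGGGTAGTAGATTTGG
EWSR1-216, 3' end: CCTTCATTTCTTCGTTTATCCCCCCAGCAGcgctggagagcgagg
DDX3X-258, chrX:41341617-41342494, plus strand, 5' end: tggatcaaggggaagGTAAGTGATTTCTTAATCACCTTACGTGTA
DDX3X-258, 3' end: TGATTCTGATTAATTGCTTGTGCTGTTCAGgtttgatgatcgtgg
YBX3-208, chr12:10702135-10704050, minus strand, 5' end: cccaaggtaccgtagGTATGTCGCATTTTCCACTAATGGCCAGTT
YBX3-208, 3' end: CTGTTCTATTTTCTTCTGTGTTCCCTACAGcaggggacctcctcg

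The transcripts shown took the following shares of their gene's reads. HNRNPA2B1-204 took 41% ± 4.26 in control granules and 13.6% ± 4.35 in control exosomes (SD, n = 5 each), although the summed share of that gene did not pass the test. ATXN2L-211 took 19.5% ± 3.83 in control granules and 1.44% ± 0.998 in control exosomes, and PABPC4-209 15.8% ± 2.81 and 0.702% ± 0.806. For these 3 transcripts the means of control granules were the higher ones. EWSR1-216 took 21.3% ± 3.37 in control granules and 5.58% ± 2.50 in control exosomes, DDX3X-258 27.9% ± 6.23 and 1.64% ± 0.714, and YBX3-208 53.97% ± 6.05 and 18.7% ± 1.15. As the transcripts were chosen by their share in control granules, these values are a description with no test.

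**Figure D3:**
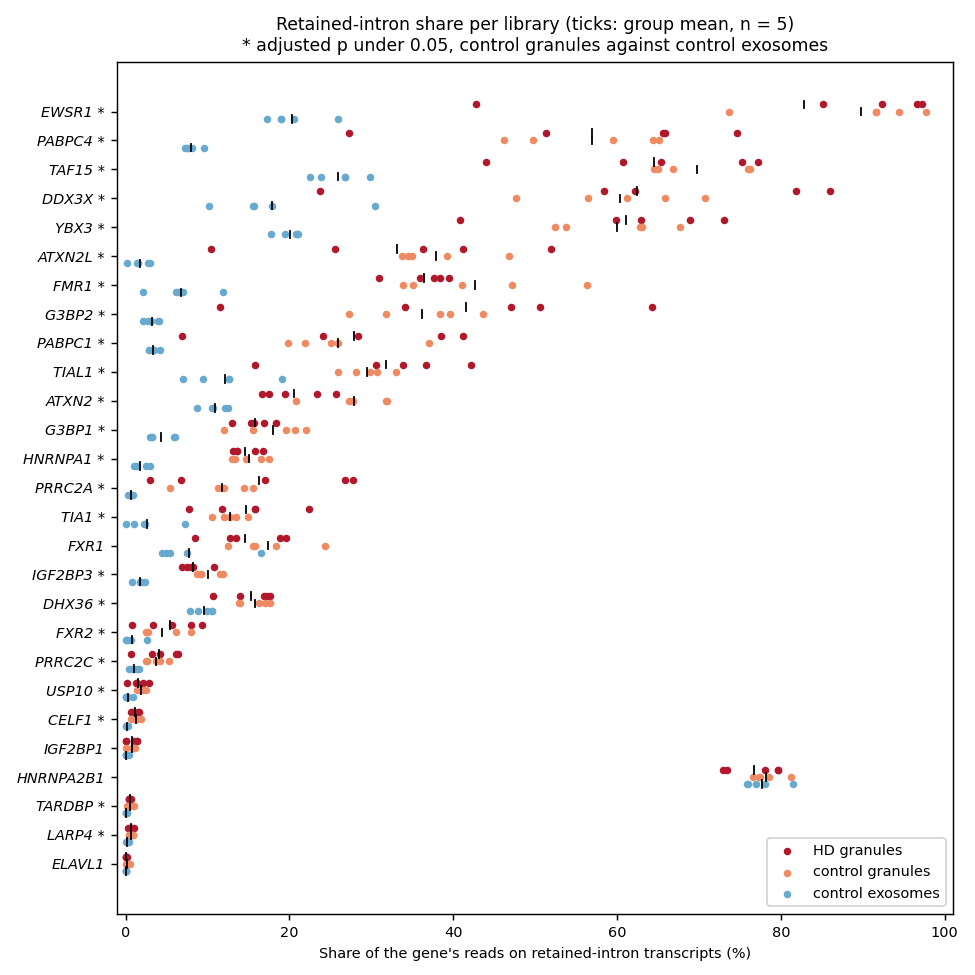
Share of each gene's reads on retained-intron transcripts (x axis, in percent) in each HD granule, control granule and control exosome library, with group means as ticks. In EWSR1 the control granules lay between 73.6% and 97.8% and the control exosomes between 17.3% and 25.9%, and 23 of the 27 genes passed the test between these 2 groups.

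When protein-coding transcripts alone were counted, 26 of the 38 were called in control cells, 6 as higher and 20 as lower, and of all genes in that fit 61.2% were called. EWSR1 then had a log2 fold change of -3.26 ± 0.54 (SE) and TAF15 of -3.22 ± 0.25, both lower than with all transcripts. PABPC1 was at -1.74 ± 0.22 and PABPC4 at -1.25 ± 0.16. DDX3X, at -0.95 ± 0.24, and FMR1, at -0.51 ± 0.16, were called as lower in this setting (edgeR adjusted p = 0.00407 and 0.0145). HNRNPA2B1 was called as higher, at 1.57 ± 0.29 (adjusted p = 0.000473), and YBX3 was at -0.08 ± 0.13 (adjusted p = 0.639).

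**Figure D4:**
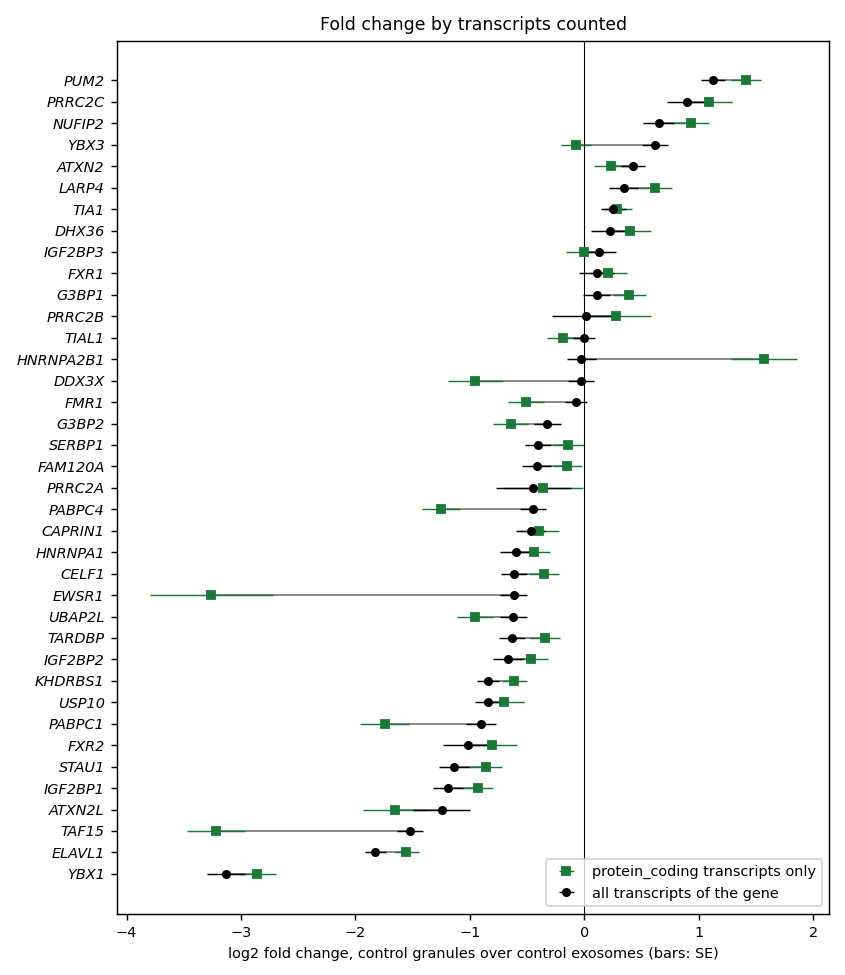
Log2 fold change between control granules and control exosomes (x axis, with SE) with all transcripts of a gene (circles) and with its protein-coding transcripts alone (squares). EWSR1 moved furthest down, to -3.26, and HNRNPA2B1 moved up to 1.57.

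In HD-induced cells, 5 of the 38 mRNAs were called between granules and exosomes, 2 as higher and 3 as lower in HD granules. Of all 14431 genes tested, 17.7% were called, 11.9% as higher and 5.77% as lower, and the median log2 fold change was 0.16 for the 38 and 0.17 for all genes. Of the markers tested, 1 of 3 of the HEK293 line, 2 of 5 of blood and 1 of 3 of skin were lower in HD granules, and none was higher. At 0 were NEFM, PF4, PPBP, RGS18 and LORICRIN in HD granules and PF4, PPBP and KRT14 in HD exosomes, and the part of the markers was not tested. With DESeq2's size factors in edgeR, or with the length offset, 5 were again called but not the same 5: ELAVL1 and YBX1 as lower in both settings, and as higher ATXN2, YBX3 and PRRC2C in the first and UBAP2L, ATXN2 and PRRC2A in the second. Of all genes, 21.0% were called in the first setting and 16.8% in the second. The groups did not overlap for 3 of the 38, against 10.5% of all genes. ELAVL1 stood at 80.7, 88.0, 124, 81.4 and 91.7 CPM in HD granules 1 to 5, against 274, 209, 276, 0 and 258 CPM in HD exosomes. YBX1 stood at 236.5, 284, 737, 253 and 209.8 CPM in HD granules, against 2177, 1253, 1277, 0 and 1383 CPM in HD exosomes. Both were lower in HD granules than in every HD exosome library but replicate 4, where no read fell on either gene, and HD granule 3 was the highest granule library of both. The log2 fold changes were -1.37 ± 0.30 for ELAVL1 and -1.93 ± 0.57 for YBX1 (SE; edgeR adjusted p = 0.00931 and 0.0332).

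TAF15 averaged 130 ± 31.3 CPM in HD granules and 230.3 ± 148 CPM in HD exosomes (SD, n = 5 each; log2 fold change -1.07 ± 0.34 SE). The exosome mean includes replicate 4, which held no read of TAF15. HD exosomes 1 to 5 stood at 303, 250, 202, 0 and 397 CPM, and HD granules between 105 and 172 CPM. YBX3 stood at 249, 279.6, 221, 295 and 287 CPM in HD granules 1 to 5, against 156.5, 93.8, 134, 0 and 113 CPM in HD exosomes. ATXN2 stood at 114, 147, 161, 188 and 146 CPM in HD granules, against 94.6, 58.3, 92.6, 0 and 76.7 CPM in HD exosomes. Both were higher in every HD granule, with log2 fold changes of 1.14 ± 0.29 for YBX3 and 0.94 ± 0.28 for ATXN2 (SE; edgeR adjusted p = 0.0175 and 0.0321). PUM2 was at 762, 772, 279, 828.7 and 868 CPM in HD granules and at 285, 392, 314, 0 and 483 CPM in HD exosomes, and was not called (edgeR adjusted p = 0.105). HD granule 3 was its only granule library within the range of the exosomes.

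The number of calls in HD-induced cells depended on single libraries. It was 10 without HD granule 3, where 38.8% of all genes were called, and 6 without HD exosome 4, where 18.04% were. It was 2, 1, 2 and 1 without HD granule 1, 2, 4 or 5, with 8.95% to 10.8% of all genes called. It was 3, 1, 2 and 2 without HD exosome 1, 2, 3 or 5, with 10.9% to 17.4% of all genes called. ELAVL1 was called in each case. Without HD exosomes 2 and 4 and HD granule 3 it was 13, with 3 higher and 10 lower, and 34.99% of all genes were called. Among the 13 were YBX1 at -2.78 ± 0.26, IGF2BP1 at -1.27 ± 0.20 and PUM2 at 1.10 ± 0.24 (SE; edgeR adjusted p = 0.000342, 0.00179 and 0.0071). With all libraries, 1 of the 50 other stress granule genes was higher and 5 were lower in HD granules. Of the 28 regulators 2 were higher and 4 lower, and of all genes 11.9% and 5.77%.

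None of the 38 mRNAs was called between HD granules and control granules, nor between HD exosomes and control exosomes. These comparisons share their libraries with those above. By edgeR, 0.0% of 16750 genes in granules and 0.0% of 12936 genes in exosomes were called, and at an unadjusted p under 0.05 these numbered 215 and 980 genes. DESeq2 and limma also called none of the 38, with 0.0239% and 0.0299% of all genes called in granules and none in exosomes. The groups overlapped for all 38 in both comparisons, against 0.358% of genes without overlap in granules and 0.881% in exosomes. In granules 1 of the 38 had an unadjusted p under 0.05, ATXN2, and in exosomes 0. ATXN2 stood at 85.6, 109, 124, 139 and 108 CPM in HD granules 1 to 5, against 98.0, 87.8, 86.1, 75.6 and 87.2 CPM in control granules. HD granule 1 lay within the control range and the other 4 above it (log2 fold change 0.38 ± 0.15 SE; edgeR adjusted p = 1.00).

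The intervals give the size of difference that these data could hold. In granules the 95% interval of the log2 fold change was narrowest for YBX3, at -0.13 to 0.43, and wide for ATXN2L, at -0.34 to 1.86, and for PRRC2A, at -0.76 to 1.54. Scaled with HD exosomes, HD granule 3 was the highest HD granule library for ATXN2L, PRRC2A and YBX1. It stood at 388, 1169 and 737 CPM, against 75.8 to 119, 234 to 582 and 209.8 to 284 CPM in the others. The intervals given here include that library. G3BP1 lay between -0.31 and 0.44 in granules and between -0.44 and 0.64 in exosomes. YBX1 lay between -0.34 and 1.24 in granules and between -1.29 and 0.22 in exosomes, where its log2 fold change was -0.54 ± 0.36 (SE) with all libraries and -0.34 ± 0.19 without HD exosomes 2 and 4. The difference between both HD effects was called for 0.0186% of 16154 genes (0.00619% as higher, 0.0124% as lower) and for 0 of the 38 by edgeR, with 778 genes and 0 of the 38 at an unadjusted p under 0.05, and DESeq2 and limma called 0 of the 38. It was 1.08 for YBX1 on the log2 scale, with a 95% interval of -0.11 to 2.27, and 0.31 ± 0.27 (SE) without HD exosomes 2 and 4 and HD granule 3.

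**Figure D5:**
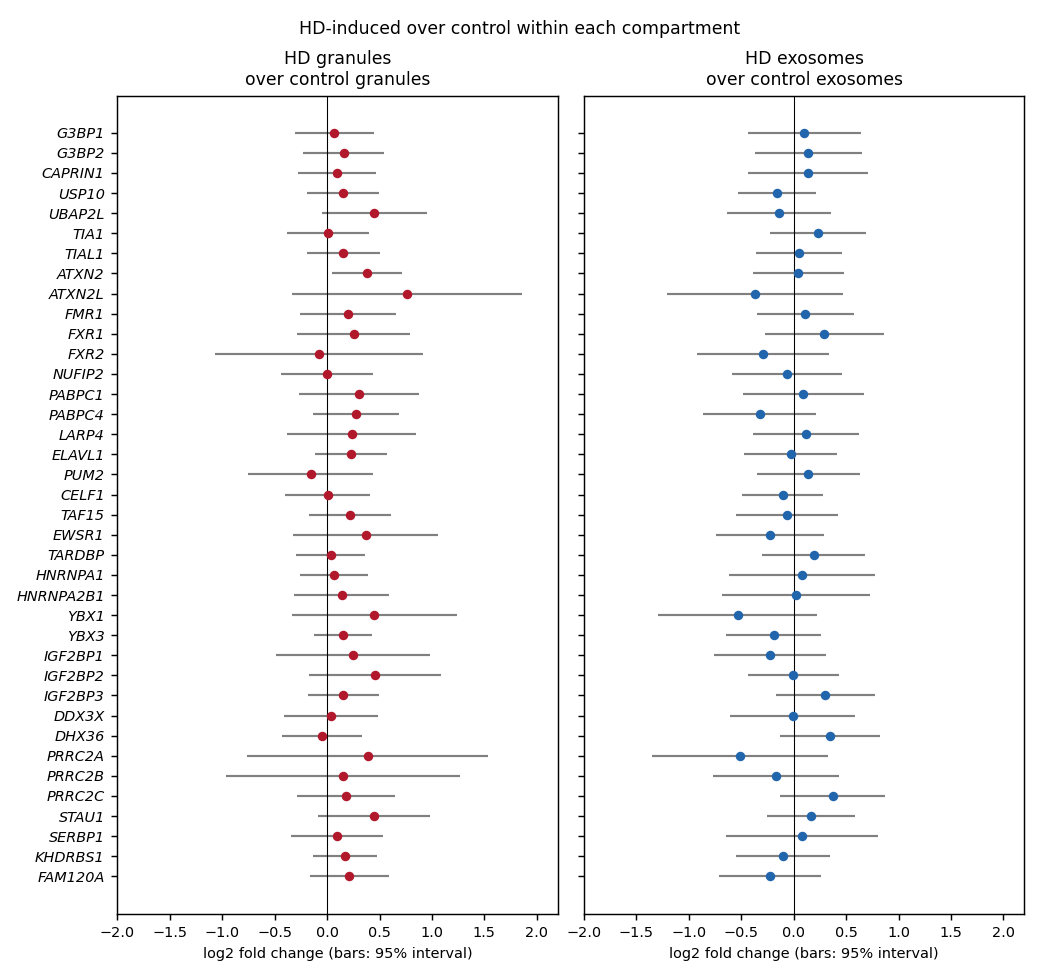
Log2 fold change and 95% interval (x axis) of each of the 38 mRNAs between HD and control granules (left) and between HD and control exosomes (right). All intervals include 0 but that of ATXN2 in granules, 0.05 to 0.71, and no mRNA was called at an adjusted p under 0.05.

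Retained-intron shares were not called for any of the 27 genes between HD granules and control granules, by the exact permutation test adjusted over 6647 genes, where 0.0% were called, and the groups overlapped for all 27, against 0.572% of genes without overlap. At an unadjusted p under 0.05 were 186 genes, and of the 27 ATXN2 alone, at 20.6% ± 3.89 in HD granules and 27.9% ± 4.51 in control granules (SD, n = 5 each). Over all transcripts not classed as protein-coding none of 36 was called, the groups overlapped for all 36, against 0.596% of genes without overlap, and 1 of them, PUM2, had an unadjusted p under 0.05. EWSR1 had 85.2%, 96.6%, 42.7%, 97.2% and 92.3% in HD granules 1 to 5, and DDX3X 58.4%, 81.9%, 23.7%, 86.0% and 62.2%. For both genes HD granule 3 was the lowest. In HD exosomes 1, 2, 3 and 5, EWSR1 had 16.2%, 45.6%, 20.9% and 51.9% and TAF15 16.6%, 23%, 21.1% and 23.9%, while replicate 4 held no read of either gene.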

How the data were processed

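Per the submitters' processing notes, the authors used Trimmomatic, cutadapt, FastQC and Salmon with build GRCh38.p14, and neither tool versions nor an annotation release were found in the labels or headers. The deposited files hold, per transcript, an expected count and a TPM value. Expected counts were summed per gene and rounded, filtered with filterByExpr, scaled by TMM and tested with edgeR 4.0.16 (R 4.3.3; robust quasi-likelihood, Benjamini-Hochberg adjustment), with the libraries of the groups compared. The SE is the absolute log2 fold change over the root of F. DESeq2 1.42.0, limma 3.58.1 and other scalings, filters, corrections and left-out libraries were alternatives.

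Transcript shares were tested by exact permutation in genes with at least 50 reads in each library. This test was planned with adjustment over the 38 genes and is adjusted here over all genes. Both tests were tested on simulated data. A first criterion for edgeR, recovery of changed genes at the spread of these libraries, was missed, and criteria on bias, sign, interval coverage, false calls and recovery at low spread were then set and passed. The members and lists were chosen with earlier results of these data known. All 38 members are named, and of the other stress granule genes up to 2 called genes of smallest p per direction and comparison.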

Additional observations from a re-analysis of the deposited data

Results flagged for a closer look

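Within groups of 5 libraries, 237 sets of values were searched for 1 library far from the other 4, by the size of its gap relative to the range, and 27 were found. Chance alone gives about 1 in 20. The reasons were not tested.

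In HD granules, replicate 3 was the library apart for 11 mRNAs. It was the highest for UBAP2L at 361 CPM, ATXN2L at 388, FXR2 at 159, PABPC1 at 1294, ELAVL1 at 124, EWSR1 at 393, YBX1 at 737, IGF2BP1 at 701, IGF2BP2 at 111 and PRRC2C at 1458 CPM. It was the lowest for PUM2, at 279 CPM. It also had the lowest retained-intron share of EWSR1, 42.7%.

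In control granules, replicate 1 was the highest for ATXN2L at 119 CPM and for PRRC2B at 712 CPM, and replicate 5 for NUFIP2 at 678 CPM and LARP4 at 396 CPM. Replicate 1 had the lowest retained-intron share of EWSR1, 73.6%, and replicate 5 that of IGF2BP1, at 0%. In control exosomes, replicate 5 had the highest retained-intron share of FXR1, 16.5%, and replicate 2 those of FXR2, 2.61%, and IGF2BP1, 0.369%.

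HD exosome 4, with 713 reads on named genes, was the lowest for USP10, ELAVL1, IGF2BP3, STAU1 and KHDRBS1, each at 0 CPM, and for PABPC1, whose 1 read there made 138 CPM.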

How the results depend on the processing

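In control cells, between granules and exosomes, the 27 calls became 22 to 30 under the other settings, except 16 in 1 fit over all 20 libraries. Of all genes, 48.8% were called in that 1 fit and 28.1% without the filter. Under the remaining settings 56.4% to 71.2% were called. Leaving out 1 library gave 22 to 27, with 57.7% to 64.2% of all genes called. Higher and lower calls numbered 6 and 21, against 10 and 20 with the offset for transcript length. The median over all genes was -0.02, 0.09 with RLE factors, 0.11 with upper-quartile factors and 0.27 without the filter. Direction was read only of values called in either setting. After GC correction the log2 fold changes turned to -0.38 for TIA1, -0.50 for FXR1, -0.25 for LARP4 and -0.60 for DHX36. With a replicate block and GC correction they were -0.38, -0.49, -0.26 and -0.60. With the length offset they turned to -0.51 for G3BP1, 0.36 for UBAP2L, 0.25 for ATXN2L, 0.64 for PRRC2A and 0.054 for FAM120A, and with protein-coding transcripts to 1.57 for HNRNPA2B1 and -0.075 for YBX3. With TPM the HNRNPA2B1 retained-intron difference was -12.3 points, and called. The cause was not tested.

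In HD-induced cells the share of all genes called is given in brackets. The 5 calls (17.7%) became 8 with DESeq2 (16.2%) and 16 with limma voom (41.8%). They became 16 with GC correction (35.1%) and 11 with replicate block and GC correction (28.4%). With protein-coding transcripts they were 3 (14.4%), and in 1 fit over all 20 libraries 10 (35.0%). Without HD exosomes 2 and 4 and HD granule 3 they were 13 (34.99%). Leaving out 1 library gave 1 to 10 (8.95% to 38.8%). After GC correction TIA1 turned to -0.38 and FMR1 to -0.51, and FMR1 to -0.58 with the replicate block as well. Upper-quartile factors could not be fitted where HD exosomes entered. The 3 comparisons of HD effects had 0 calls among the listed mRNAs in every setting fitted. Between HD and control exosomes, 3.80% of all genes were called without HD exosome 1 and 0.825% without the filter. With a replicate block it was 2.29%, and in the other settings at most 0.0307%. Between HD and control granules at most 0.0299% of all genes were called. For the difference between both HD effects the highest share was 0.166%, without HD exosome 1.

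The replicate numbers were not taken as pairs, since the correlation of same-numbered libraries was over 0.1 in 2, 4, 3 and 3 of 5 pairs and not in all. Its median was 0.0428, 0.26, 0.233 and 0.195, against 0.00425, -0.11, -0.11 and -0.0892 for other numbers. With the number as a replicate block, calls were 28 in control cells (62.9% of all genes), 6 in HD-induced cells (27.8%) and 0 in the others. Between HD and control cells 2.29% of all genes were then called in exosomes and 0% in granules. For the difference between both HD effects it was 0.00619%. Shares were not fitted with a block. For shares of transcripts not classed as protein-coding, calls were 21 with all control libraries, where 38.8% of all genes were called. They were 19 with TPM, 20 to 23 with 1 library left out and 20 adjusted over the members alone. That last setting was added after the data were seen. For these other settings the share over all genes was not counted. Retained-intron shares alone gave 23, with 56.7% of all genes called. HD exosome 4 had 713 named reads, so values at 0 there are not absence.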
